A study of Homo sapiens with 6 samples.

Results

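The transcripts described here are those of the nuclear genes for the mitochondrial respiratory chain and ATP synthase. They were measured in RNA that came down with the double-stranded RNA-binding protein Stau1 in mitotic human cells. The members were chosen by symbol, as every array target that starts with NDUF, UQCR or ATP5, is SDHA, SDHB, SDHC or SDHD, or is COX followed by a digit. This gave 93 of the 37879 targets of the array. By their known roles, 34 encode subunits of complex I, 4 of complex II, 7 of complex III, 17 of complex IV and 14 of complex V. A further 12 encode assembly or associated factors, and 4 are pseudogenes or retrocopies (ATP5EP2, COX11P, COX6BP1 and UQCRHL). COX4NB, now EMC8, matched by its letters only, belongs to an endoplasmic reticulum complex and is left out of the complexes below.

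Cells of HEK293T, a widely used line derived from human embryonic kidney and easy to transfect, received either an empty vector or a plasmid for Stau155-FLAG, the short isoform of Stau1 with a FLAG tag. All cells were held in prometaphase by nocodazole, a drug that blocks microtubule assembly, at 50 ng/ml for 15 h by the sample labels, and anti-FLAG antibody was used in both groups. The RNA of 3 control IPs and 3 Stau1 IPs was hybridized on 6 Illumina BeadChip arrays. The tagged protein came from a transfected plasmid in a single cell line, and total RNA was not analysed here, so a difference between the IPs cannot be told apart from a difference in the level of a transcript in the cells. Nothing in the labels says that the replicates came from separate cultures, so p-values measure only the spread between these arrays, which may be technical.

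Complex I takes electrons from NADH and complex II takes them from succinate. Both pass them through ubiquinone to complex III, cytochrome c and complex IV, which reduces oxygen, and complex V makes ATP from the proton gradient that complexes I, III and IV build. Most subunits are encoded in the nucleus, translated in the cytosol or at the mitochondrial surface and imported. A small number of core subunits carry the electrons or the catalytic sites, and many smaller accessory subunits stabilise the complexes.

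The array labelled Stau1 IP 2 stood apart from its group. The array labelled control IP 2 lay with the controls over the respiratory chain members and about equally near to both groups over all detected targets. Across the 80 members detected on all 6 arrays, the Pearson correlation of normalized log2 signal was 0.997 between Stau1 IP 1 and 3, while Stau1 IP 2 reached 0.951 and 0.954 with them and 0.983 with control IP 3. Control IP 2 had 0.988 and 0.99 with control IP 1 and 3 over these members, against 0.986 between control IP 1 and 3 themselves, and 0.98 and 0.979 with Stau1 IP 1 and 3. Over the 9884 targets detected on all 6 arrays, control IP 2 had 0.977 and 0.982 with control IP 1 and 3 and 0.983 and 0.984 with Stau1 IP 1 and 3. Its median absolute log2 difference there was 0.193 and 0.176 to control IP 1 and 3 and 0.186 and 0.183 to Stau1 IP 1 and 3. Between control IP 1 and 3 the correlation was 0.983 and the difference 0.185. These values are across genes of the same arrays and carry no test. Signals of STAU1 itself were 2499, 3246 and 2758 on control IP 1, 2 and 3 and 2845, 1857 and 3130 on Stau1 IP 1, 2 and 3. The groups overlapped for it, with Stau1 IP 2 the lowest of all, so that the transcript of the transfected gene did not separate the labels. Whether the probe can read the plasmid transcript is not given in the sources used here. The counts, the list medians and the members that fell or rose are therefore given by the labels and again without both arrays numbered 2, no array was moved to the other group, and both are shown singly. These arrays were set aside with earlier results of the same data known, so the second fit is not independent of that choice. All 10 markers chosen for HEK293T cells and for mitosis (VIM, KRT8, KRT18, NEFL, NEFM, CCNB1, CDC20, PLK1, AURKA and BUB1) were detected on all 6 arrays. Of these 10, 9 lay below 0 by the labels, with a median log2 fold change of -0.154, and without the arrays numbered 2 the median was -0.495 and BUB1 and CCNB1 fell (limma adjusted p = 0.0183 and 0.0215), so these markers moved in the same direction as many members and their part in the results was not tested. Of 8 markers of other cell types, 0 were detected on all 6 and 5 on none.

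Respiratory chain transcripts were abundant in both kinds of IP. The detection p places each signal within the negative-control distribution, and a value under 0.05 was taken as detection. By this measure 80 of the 93 members were detected on all 6 arrays, 4 on some and 9 on none, against 9884, 5467 and 22528 of all targets. Between 80 and 82 members were detected on each array. The undetected members were mostly the isoforms known for other tissues. COX4I1 was detected on 6 arrays and COX4I2, its lung form, on 0. COX6A1 and COX7A2, the liver forms, were detected on 6 arrays each and the muscle forms COX6A2 and COX7A1 on 0. COX7B and COX8A were detected on 6 arrays and their testis forms COX7B2 and COX8C on 0. COX6B1 was detected on 6 and the testis form COX6B2 on 2. NDUFA4 was detected on 6 and NDUFA4L2, a paralog induced by low oxygen, on 1. All of ATP5G1, ATP5G2 and ATP5G3, which encode the same mature c subunit of the ATP synthase rotor, were detected on 6. The complex I subunits NDUFA5, NDUFB4 and NDUFS6 were detected on 0 arrays and NDUFB1 on 4, which for single targets says only that the signal did not rise over the negative controls.

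Taken by the labels, no member passed a corrected threshold, and the differences that were seen leaned towards lower signal in the Stau1 IPs. By limma with Benjamini-Hochberg adjustment over all targets, 0 of 93 members had an adjusted p under 0.05, where 0.00264% of all targets did, and the t-test of the methods with the same adjustment also gave 0. With the threshold of the methods, a fold above 2.5 with an unadjusted p under 0.05, 0 members passed and again 0.00264% of all targets. At an unadjusted limma p under 0.05, 23 members were lower in the Stau1 IPs, 24.7% of the members against 5.04% of all targets and 12.3% of the targets detected on all 6 arrays. A further 6 members, or 6.45%, were higher, against 3.88% of all targets and 9.99% of those detected. Median centring of the arrays in place of spline normalization turned this split into 26 lower and 3 higher, and that over all targets from 1910 lower and 1471 higher into 1618 and 683. All 3 Stau1 IP arrays lay below all 3 control IP arrays for 19 members, against 7.8% of all targets, and above them for 6, against 6.68%. These members were all among the 80 detected on all 6 arrays. Of the 9884 targets so detected, 1295 lay apart below and 1002 above. The median log2 fold change, Stau1 IP minus control IP, was -0.144 over the 93 members and 0.00257 over all targets, and 63 members, or 67.7%, lay below 0, against 48.2% of all targets. In the fit without the arrays numbered 2 these medians were -0.202 and -0.00356, with 71% of the members and 52.1% of all targets below 0. Members and targets are not independent of each other, so these shares are descriptions. Control IP 1 had the highest signal of the 6 arrays for 37 of the 80 detected members and Stau1 IP 3 the lowest for 34. Over all targets detected on all 6 arrays these shares were 21% and 17.9%, against 46.2% and 42.5% of the members. Without control IP 1, 14 members were lower at an unadjusted p under 0.05, all of them among the 23, and without Stau1 IP 3 there were 15, of which 14 were among the 23.

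Without the arrays numbered 2, transcripts of complexes I, III and V moved in both directions, more often down than up. In this fit of 2 against 2 arrays, which has 2 residual degrees of freedom per target, 14 members fell and 5 rose in the Stau1 IPs at a limma adjusted p under 0.05. With Stau1 IP 2 alone left out, 0 members had an adjusted p under 0.05 and 37 were lower and 13 higher at an unadjusted p, so these calls rest on leaving out both arrays. The 14 make 15.1% of the members, against 2.36% of all targets and 7.92% of the targets detected on all 6 arrays. The 5 that rose make 5.38%, against 3.3% of all targets and 9.68% of those detected, so the share that rose was below that of the detected targets. Only NDUFC2 passed the methods threshold, which 0.663% of all targets did. The members that fell were NDUFA13, NDUFA7, NDUFS8, NDUFB11, NDUFB2, NDUFAB1 and NDUFB10 of complex I, UQCRB and UQCRQ of complex III, ATP5I, ATP5H and ATP5L of complex V and the assembly genes COX17 and NDUFAF3. Those that rose were NDUFC2 and NDUFS1 of complex I, UQCR of complex III, and ATP5A1 and ATP5D of complex V. All 19 had the same sign in the fit by the labels and in each fit that left out 1 array. The 19 were selected on arrays that these fits also use, so this agreement in sign adds no support. For the 14 that fell, control IP 2 lay nearer to control IP 1 and 3 in 13 and Stau1 IP 2 lay nearer to them in 10. For the 5 that rose, control IP 2 lay nearer to Stau1 IP 1 and 3 in 4, and Stau1 IP 2 nearer to the controls in 3.

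**Figure D1:**
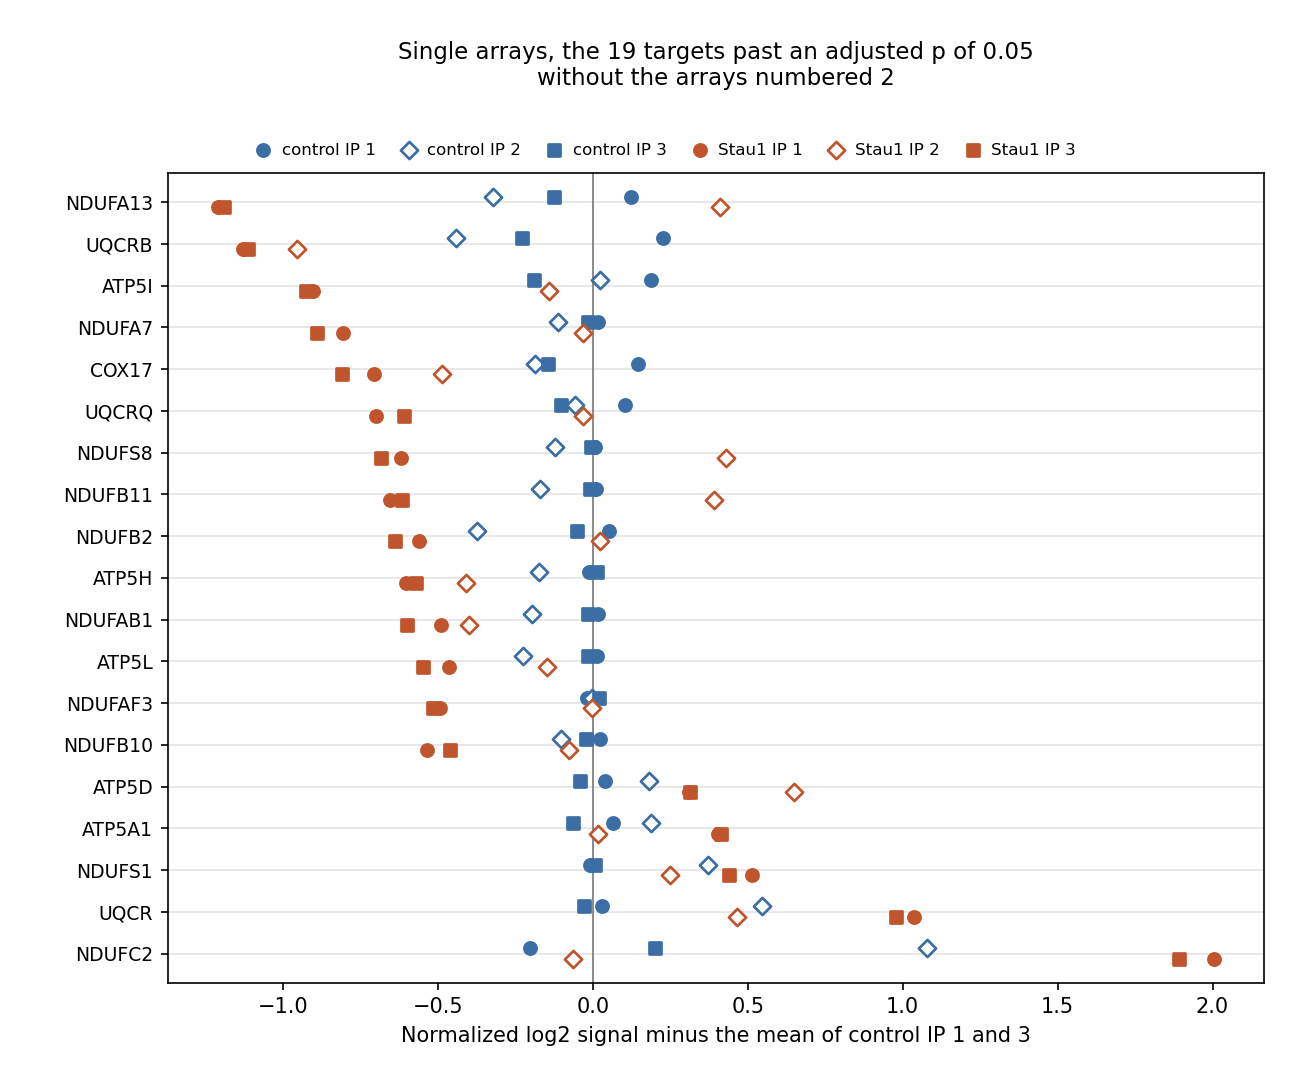
Each row is 1 of the 19 members with a limma adjusted p under 0.05 without the arrays numbered 2, and each mark is 1 array, placed by its normalized log2 signal minus the mean of control IP 1 and 3. Filled marks are the arrays numbered 1 and 3 and open diamonds those numbered 2: control IP 2 lies nearer to the controls for 13 of the 14 members that fell, NDUFB2 being the other, while Stau1 IP 2 lies with the Stau1 IPs for UQCRB and above all controls for NDUFA13.

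Complex I, the largest group with 34 of the 93 members, held 7 of the 14 members that fell. Of its 34 subunit genes, 26 had a log2 fold change below 0 by the labels, with a median of -0.188 (-0.288 without the arrays numbered 2). At an unadjusted limma p under 0.05, 8 (23.5%) were lower and 2 (5.88%) higher, against 5.04% and 3.88% of all targets. Of the 30 detected on all 6 arrays these were 26.7% and 6.67%, against 12.3% and 9.99% of the targets so detected. Without the arrays numbered 2, 7 (20.6%) fell and 2 (5.88%) rose at an adjusted p under 0.05, against 2.36% and 3.3% of all targets. Of the 30 detected these were 23.3% and 6.67%, against 7.92% and 9.68% of the detected targets, so the share that rose was below theirs. The share that fell was 28.6% in complex III and 21.4% in complex V, so the fall was not particular to complex I. NDUFA13, an accessory subunit also known as GRIM-19, had signals of 9073, 7089 and 7382 on control IP 1, 2 and 3 and of 3445, 11488 and 3863 on Stau1 IP 1, 2 and 3. Stau1 IP 1 and 3 were below every control array and Stau1 IP 2 was above every one, so the groups overlapped. The log2 fold change by the labels was -0.56 ± 0.47 (SE, limma adjusted p = 0.842), and without the arrays numbered 2 it was -1.20 ± 0.09 (adjusted p = 0.0158), a 2.30-fold fall. NDUFA7, another accessory subunit, showed 2446, 2574 and 2462 on the control IPs and 1457, 2414 and 1512 on the Stau1 IPs. Here Stau1 IP 2 was near the controls, which lay close together, and the log2 difference without the arrays numbered 2 was -0.85 ± 0.05 (SE, limma adjusted p = 0.0108).

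NDUFS8, a core subunit that carries iron-sulfur clusters, had signals of 9856, 9564 and 9421 on the control IPs and 5965, 13768 and 6352 on the Stau1 IPs. NDUFB11, an accessory subunit of the membrane arm, had 7572, 7203 and 7315 on the control IPs and 4591, 10317 and 5228 on the Stau1 IPs. For both, the Stau1 IPs numbered 1 and 3 were the lowest of the 6 arrays and Stau1 IP 2 the highest. Their log2 differences without the arrays numbered 2 were -0.65 ± 0.04 and -0.63 ± 0.04 (SE, limma adjusted p = 0.013 and 0.012). NDUFAB1, the mitochondrial acyl carrier protein, had 5084, 4833 and 4956 on the control IPs and 3558, 3843 and 3651 on the Stau1 IPs. It was the only one of the 7 complex I members that fell with all Stau1 IP arrays below all control IP arrays, and its log2 fold change by the labels was -0.43 ± 0.08 (SE, limma adjusted p = 0.22). NDUFB2 and NDUFB10, accessory subunits of the membrane arm, differed by -0.60 ± 0.06 and -0.50 ± 0.05 without the arrays numbered 2 (SE, limma adjusted p = 0.0201 and 0.0198).

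The largest differences by the labels among complex I subunits were those of NDUFC2, NDUFB3 and NDUFV2. NDUFC2, an accessory subunit of the membrane arm, had signals of 106, 365 and 148 on the control IPs and 686, 126 and 689 on the Stau1 IPs. Control IP 2 was nearer in signal to the Stau1 IPs than the other controls were, and Stau1 IP 2 lay among the controls. Its log2 fold change by the labels was 0.92 ± 0.66 (SE, limma adjusted p = 0.802, two-sided exact permutation p = 0.3). Without the arrays numbered 2 it was 1.95 ± 0.15 (limma adjusted p = 0.0158), or 3.86-fold higher, and without Stau1 IP 2 alone it was 1.59. The transformation understates changes at signals this near the background. NDUFB3, an accessory subunit, had 5852, 5229 and 3413 on the control IPs and 2546, 2853 and 2500 on the Stau1 IPs, and NDUFV2, a core subunit of the NADH-oxidising module, had 2252, 2102 and 1832 against 1298, 1651 and 1137. For both, every Stau1 IP array was below every control IP array. Their log2 fold changes were -0.84 ± 0.21 and -0.62 ± 0.21 (SE, limma adjusted p = 0.318 and 0.483). The exact permutation p was 0.1 for each, which is the smallest that 3 against 3 arrays can give.

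Core and accessory subunits of complex I were also set side by side, a split chosen after the values had been seen. Of the 27 accessory genes, 23 lay below 0 by the labels with a median of -0.235. Of the 7 core genes 3 did, with a median of 0.08. Without the arrays numbered 2, 23 accessory genes lay below 0 with a median of -0.41, and 5 core genes did with a median of -0.08, so the sign of the core median turned. Among the core genes, NDUFS7 had 3554, 5909 and 4374 on the control IPs and 5890, 6321 and 6825 on the Stau1 IPs, and control IP 2 was level with Stau1 IP 1 before normalization. NDUFS1, the largest core subunit, had 117, 192 and 119 on the control IPs and 198, 145 and 200 on the Stau1 IPs, where again control IP 2 was close to Stau1 IP 1 and 3. Its log2 difference without the arrays numbered 2 was 0.48 ± 0.05 (SE, limma adjusted p = 0.0198), and the fold change by the labels was 0.28 ± 0.13 (adjusted p = 0.632). The brightest complex I targets were NDUFS5 and NDUFB8, both accessory subunits. NDUFS5 had 23797, 19358 and 17690 on the control IPs and 11626, 13863 and 13103 on the Stau1 IPs, with the groups apart and a log2 fold change of -0.58 ± 0.09 (SE, limma adjusted p = 0.192). NDUFB8, at 24473, 27214 and 26405 against 17756, 27495 and 19339, overlapped through Stau1 IP 2.

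The subunits of complex II, which is also succinate dehydrogenase of the TCA cycle, differed among themselves. None passed the adjusted threshold in either fit. SDHA, the flavoprotein that oxidises succinate, had signals of 4364, 4135 and 4089 on the control IPs and 3539, 4482 and 3951 on the Stau1 IPs. SDHB, the iron-sulfur subunit, had 8996, 7858 and 7812 against 6139, 8084 and 6107. For both, Stau1 IP 1 and 3 were below every control array and Stau1 IP 2 was not. The log2 fold changes were -0.09 ± 0.10 and -0.27 ± 0.13 (SE, limma adjusted p = 0.893 and 0.658) by the labels, and -0.25 and -0.46 without the arrays numbered 2. Of the membrane anchors, SDHC had 477, 775 and 611 on the control IPs and 842, 761 and 1041 on the Stau1 IPs, a log2 fold change of 0.45 ± 0.10 (SE, limma adjusted p = 0.277) with only control IP 2 reaching the range of the Stau1 IPs before normalization and the groups apart after it. SDHD had 897, 1018 and 693 against 757, 297 and 739, so that its log2 fold change of -0.58 ± 0.25 (SE, limma adjusted p = 0.611) was set largely by Stau1 IP 2, at -1.07 log2 units from control IP 1 and 3, and became -0.28 without the arrays numbered 2.

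Complex III held the largest fall by the labels and 1 of the largest rises. UQCRB, the ubiquinone-binding accessory subunit, had signals of 5310, 3660 and 3826 on the control IPs and 2071, 2238 and 2310 on the Stau1 IPs. Every Stau1 IP array was below every control IP array, Stau1 IP 2 among them. The log2 fold change was -0.92 ± 0.18 (SE, 95% interval -1.36 to -0.48, limma adjusted p = 0.232, exact permutation p = 0.1) by the labels and -1.12 ± 0.16 (limma adjusted p = 0.0437) without the arrays numbered 2. UQCR, a small accessory subunit now named UQCR11, had 339, 639 and 341 on the control IPs and 853, 435 and 895 on the Stau1 IPs. Control IP 2 and Stau1 IP 2 both lay between the others, which left the groups overlapping. Its log2 fold change was 0.64 ± 0.22 (SE, limma adjusted p = 0.488) by the labels and 1.01 ± 0.05 (adjusted p = 0.00907) without the arrays numbered 2, or 2.01-fold higher. UQCRQ, a small accessory subunit, had 19226, 17560 and 15412 on the control IPs and 9605, 17678 and 11386 on the Stau1 IPs, with Stau1 IP 2 among the controls. UQCRFS1, the Rieske iron-sulfur protein, had 8216, 10231 and 10645 against 10838, 7527 and 12723 and a log2 fold change of 0.12 ± 0.23 (SE, limma adjusted p = 0.947), which became 0.36 without the arrays numbered 2. UQCRH had 7020, 7014 and 4756 on the control IPs and 4916, 4286 and 4584 on the Stau1 IPs, with a log2 fold change by the labels of -0.41 ± 0.16 (SE, limma adjusted p = 0.53). The copy UQCRHL had -0.43 ± 0.09 (adjusted p = 0.243). These are near-identical genes whose probes may read each other's transcripts, so they are not separate observations.

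In complex IV no subunit passed the adjusted threshold in either fit, and the median log2 fold change by the labels was -0.0915 (-0.11 without the arrays numbered 2) over 17 genes, of which 6 were not detected on all 6 arrays. Over the 11 that were detected on all 6, the median was -0.173 (-0.23 without the arrays numbered 2). Over the 30 complex I genes so detected it was -0.243 (-0.454). COX7B, a small accessory subunit, had the largest difference, with signals of 12068, 8862 and 6952 on the control IPs and 4657, 6363 and 4230 on the Stau1 IPs. The arrays of the groups were apart, though control IP 3 and Stau1 IP 2 lay close to each other. The log2 fold change was -0.84 ± 0.25 (SE, limma adjusted p = 0.401) by the labels and -1.06 ± 0.28 (adjusted p = 0.151) without the arrays numbered 2. COX7C had 21705, 21117 and 17195 against 16757, 19543 and 16948, and COX4I1, a subunit through which ATP regulates the complex, had 14739, 16194 and 18487 against 13654, 22634 and 14915. Both groups of arrays overlapped, and the log2 fold changes were -0.09 ± 0.07 and 0.07 ± 0.18 (SE, limma adjusted p = 0.826 and 0.958) by the labels. They were -0.09 and -0.13 without the arrays numbered 2, so that of COX4I1 changed sign. At an unadjusted limma p under 0.05, 4 complex IV targets were lower (COX7B, COX5A, COX5B and NDUFA4, a subunit once placed in complex I) and 0 were higher, and for these 4 the arrays of the groups were apart. The 4 make 23.5% of the 17 genes and 36.4% of the 11 detected on all 6 arrays. Of all targets 5.04% were lower and 3.88% higher, and of the targets detected on all 6 arrays 12.3% and 9.99%.

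In complex V, 3 subunit genes (21.4%) fell and 2 (14.3%) rose without the arrays numbered 2. Of the targets detected on all 6 arrays, 7.92% fell and 9.68% rose, and of all targets 2.36% and 3.3%. ATP5I and ATP5L, subunits e and g of the membrane part, and ATP5H, subunit d of the peripheral stalk, were those that fell, and ATP5A1 and ATP5D, the alpha and delta subunits of the soluble catalytic part, were those that rose. The gamma subunit ATP5C1, also of the soluble part, had a log2 difference of -0.33 ± 0.20 (SE, limma adjusted p = 0.58) in that fit. ATP5I had signals of 12250, 11444 and 8963 on the control IPs and 5315, 9856 and 5817 on the Stau1 IPs, and Stau1 IP 2 was above control IP 3. The log2 fold change was -0.66 ± 0.24 (SE, limma adjusted p = 0.509) by the labels and -0.92 ± 0.14 (adjusted p = 0.0464) without the arrays numbered 2. ATP5H had 24138, 21782 and 22451 on the control IPs and 13521, 18300 and 15458 on the Stau1 IPs. Its groups were apart, and the log2 fold change was -0.47 ± 0.07 (SE, limma adjusted p = 0.192, exact permutation p = 0.1) by the labels and -0.59 ± 0.04 (adjusted p = 0.0131) without the arrays numbered 2.

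ATP5A1, the alpha subunit, had 19538, 21685 and 16517 on the control IPs and 20491, 19155 and 23166 on the Stau1 IPs. Those arrays overlapped by the labels, at a log2 fold change of 0.22 ± 0.13 (SE, limma adjusted p = 0.744), and differed by 0.41 ± 0.06 (adjusted p = 0.0414) without the arrays numbered 2. ATP5D, of the central stalk, had 3017, 3789 and 2909 against 3742, 4894 and 4151, where control IP 2 was just above Stau1 IP 1 before normalization and below it after. The catalytic beta subunit ATP5B had 34926, 38981 and 38160 on the control IPs and 36606, 38190 and 39082 on the Stau1 IPs, with overlapping arrays and a log2 fold change of 0.16 ± 0.11 (SE, limma adjusted p = 0.808), or 0.26 without the arrays numbered 2. Over the 14 complex V genes the median log2 fold change by the labels was -0.283 (-0.292 without the arrays numbered 2), and 10 lay below 0. The copy ATP5EP2, which may read the transcript of its parent gene, had 29583, 26628 and 20001 against 14475, 16181 and 15960.

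The assembly and associated factors lay on both sides of 0. Of these 12 genes, 5 lay below 0 by the labels, and their median log2 fold change was 0.0528 (0.197 without the arrays numbered 2). COX17, a copper chaperone for complex IV, had signals of 31624, 24924 and 23213 on the control IPs and 14466, 20122 and 15144 on the Stau1 IPs. Its groups were apart, with a log2 fold change of -0.61 ± 0.12 (SE, limma adjusted p = 0.243) by the labels and -0.76 ± 0.11 (adjusted p = 0.0466) without the arrays numbered 2. NDUFAF3, a complex I assembly factor, had 2854, 3297 and 3005 against 2146, 2959 and 2328, a log2 difference of -0.50 ± 0.04 (SE, limma adjusted p = 0.0158) without the arrays numbered 2. NDUFAF2, another, had 7584, 5770 and 4768 against 2879, 4955 and 2887, with Stau1 IP 2 above control IP 3, and differed by -1.12 ± 0.23 (SE, limma adjusted p = 0.0907) in that fit. ATP5S, a factor linked to ATP synthase and now named DMAC2L, ran the other way. It had 351, 564 and 236 on the control IPs and 817, 216 and 811 on the Stau1 IPs, with Stau1 IP 2 the lowest array before normalization and control IP 3 after it. The log2 difference was 1.12 ± 0.21 (SE, limma adjusted p = 0.071) without the arrays numbered 2 and 0.47 ± 0.44 (adjusted p = 0.864) by the labels.

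**Figure D2:**
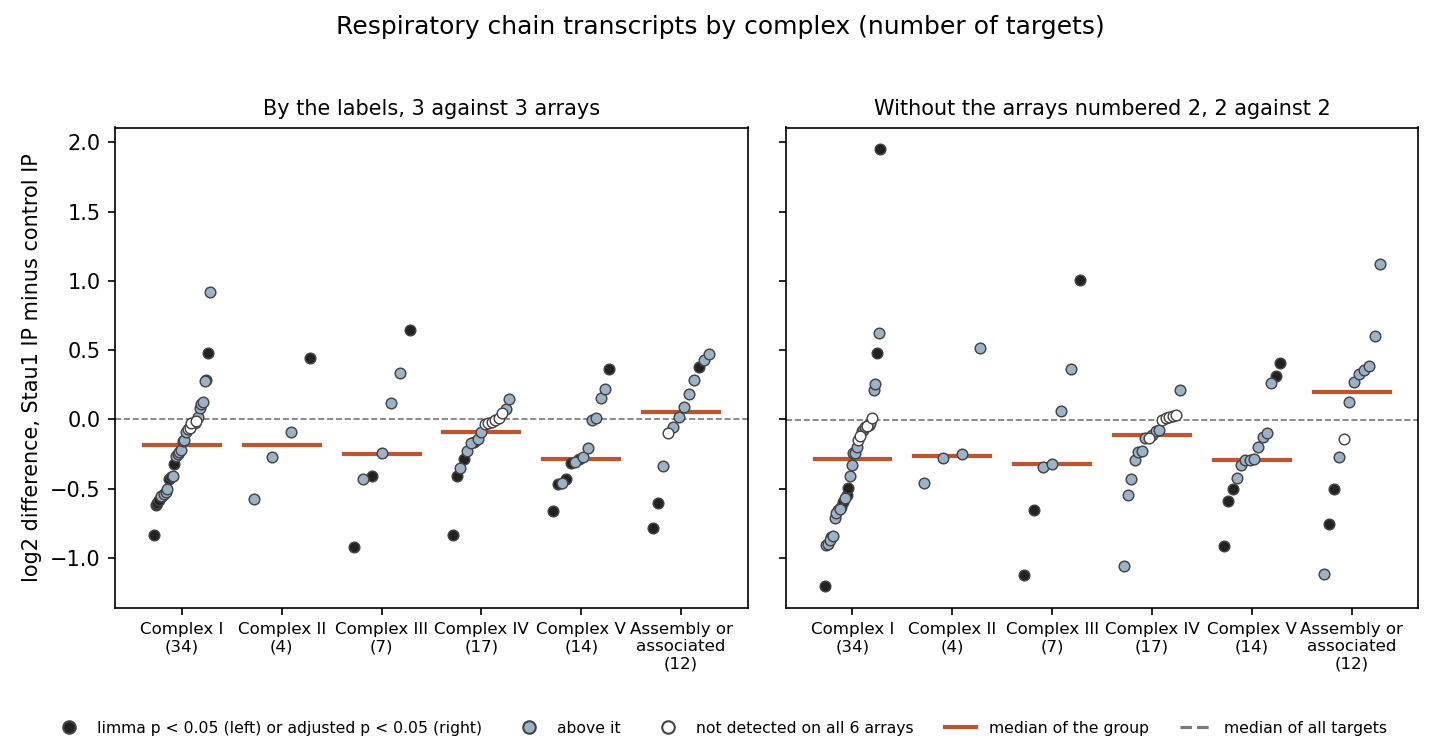
Each point is 1 member, placed by its log2 difference, Stau1 IP minus control IP, within its complex. The left panel uses all 6 arrays by their labels and the right panel leaves out the arrays numbered 2. Group medians include the genes not detected on all 6 arrays. Over the detected genes only, they were -0.243 and -0.454 for complex I and -0.173 and -0.23 for complex IV, left and right. Red bars mark group medians (-0.188 for complex I, -0.183 for II, -0.247 for III, -0.0915 for IV, -0.283 for V and 0.0528 for the assembly group on the left, and -0.288, -0.264, -0.324, -0.11, -0.292 and 0.197 in the same order on the right), the dashed line marks the median of all targets, black points have an unadjusted p under 0.05 on the left and an adjusted p under 0.05 on the right, and white points were not detected on all 6 arrays.

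**Figure D3:**
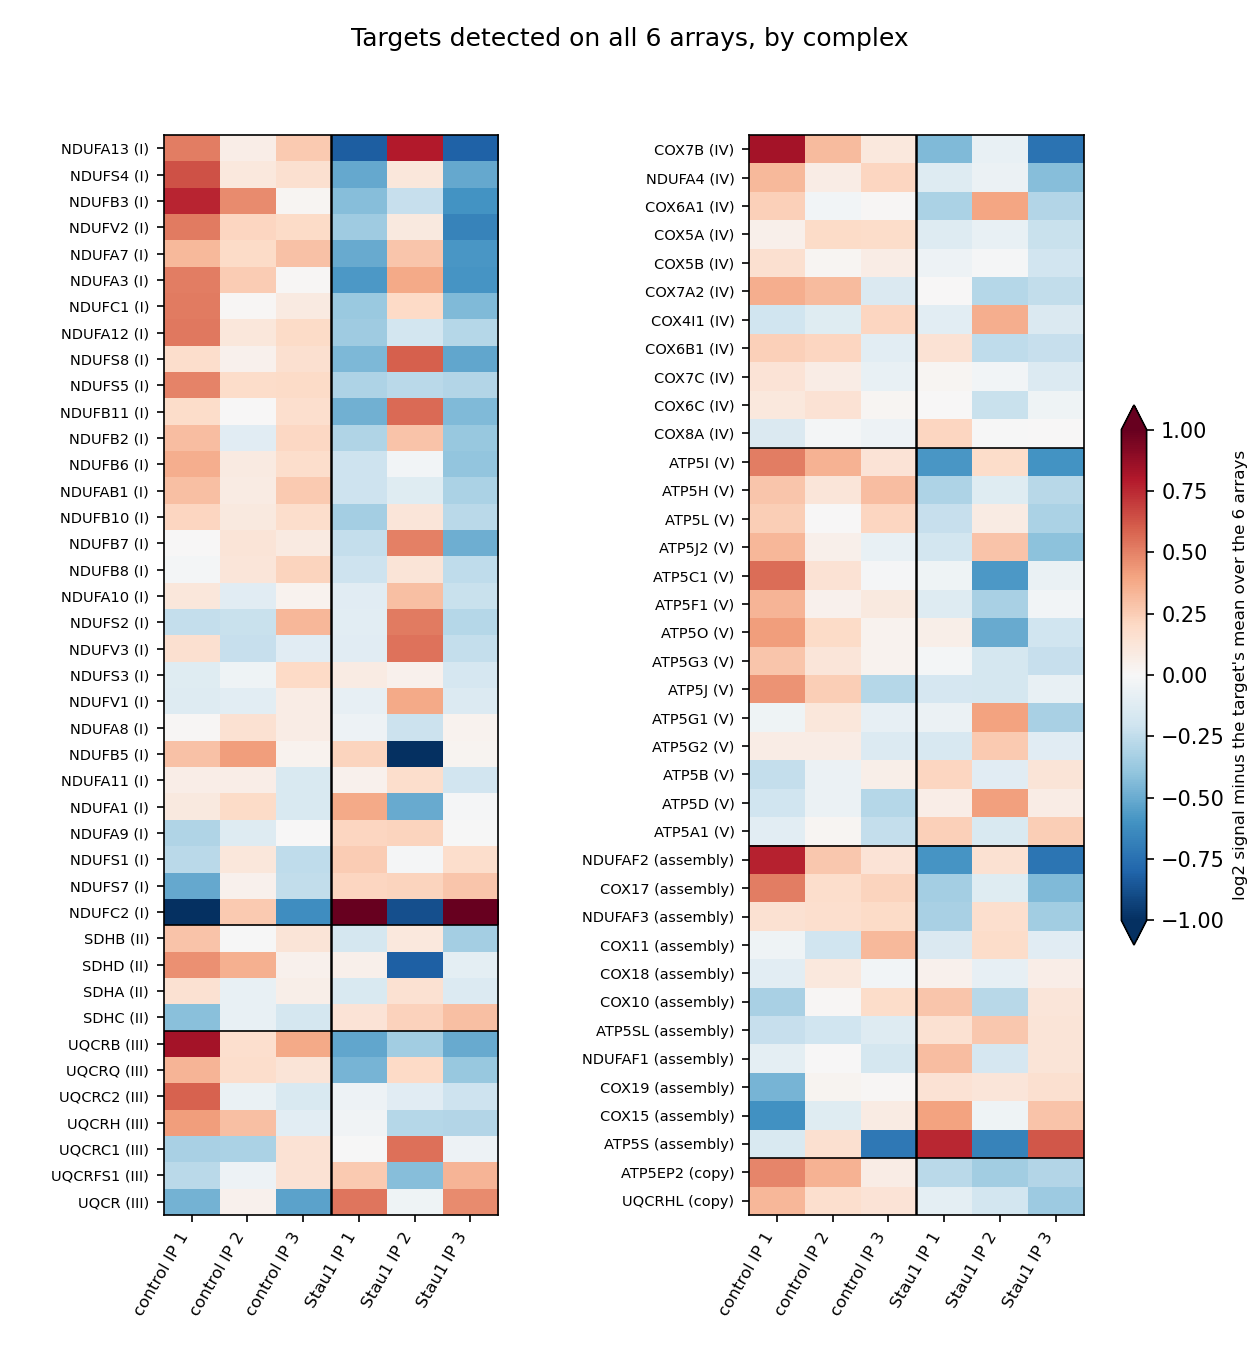
Each row is 1 of the 79 respiratory chain members detected on all 6 arrays (COX4NB is left out), ordered by complex and then by the difference without the arrays numbered 2, and each column is 1 array. Colour gives the normalized log2 signal minus the mean of that target, with the scale ending at -1 and 1. Red is high and blue is low. Over the 80 detected members control IP 1 is the highest array for 37 and Stau1 IP 3 the lowest for 34, and Stau1 IP 2 is the highest for 18 and the lowest for 12.

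The arrays numbered 2 were each placed against the other 4 arrays. Over all 93 members, control IP 2 was nearer to the mean of Stau1 IP 1 and 3 than to that of control IP 1 and 3 for 31, or 33.3%, against 50.1% of all targets. Stau1 IP 2 was nearer to control IP 1 and 3 than to its own group for 54, or 58.1%, against 53.6% of all targets. Among those detected on all 6 arrays, the shares for control IP 2 were 26.2% of the members and 47.5% of the targets. For Stau1 IP 2 they were 55% and 59.7%, so there the members lay below the targets. With median centring in place of spline normalization, the counts over the 93 members were 46 and 36, so the order of the 2 arrays depends on the scaling. Of the 25 detected members that were more than 0.5 log2 units lower in Stau1 IP 1 and 3 than in control IP 1 and 3, control IP 2 lay on the Stau1 side for 1 and Stau1 IP 2 on the control side for 14. Among the 1236 detected targets with such a difference, the counts were 420 and 804, or 34% and 65%, against 4% and 56% of the members. Of the 6 members that were more than 0.5 higher, control IP 2 lay on the Stau1 side for 4 and Stau1 IP 2 on the control side for 4, where the shares of the 1314 detected targets were 53.2% and 77.8%. Control IP 2 is the array on which all others were mapped. Over the members that were lower, the median distance from their own mean was 0.49, 0.17 and 0.19 log2 units on control IP 1, 2 and 3 and -0.37, 0.10 and -0.44 on Stau1 IP 1, 2 and 3.

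Some members were out of line on Stau1 IP 2 alone. NDUFB5, an accessory subunit of complex I, had signals of 3450, 4248 and 2920 on the control IPs and 3350, 1308 and 3243 on the Stau1 IPs. The other arrays of both groups covered the same range, and Stau1 IP 2 lay at -1.16 log2 units from control IP 1 and 3. SDHD showed the same form. Stau1 IP 2 had the highest signal of the 6 arrays for 18 of the 80 detected members and the lowest for 12, and these shares, 22.5% and 15%, compare with 29.7% and 25.2% of all targets detected on all 6 arrays.

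**Figure D4:**
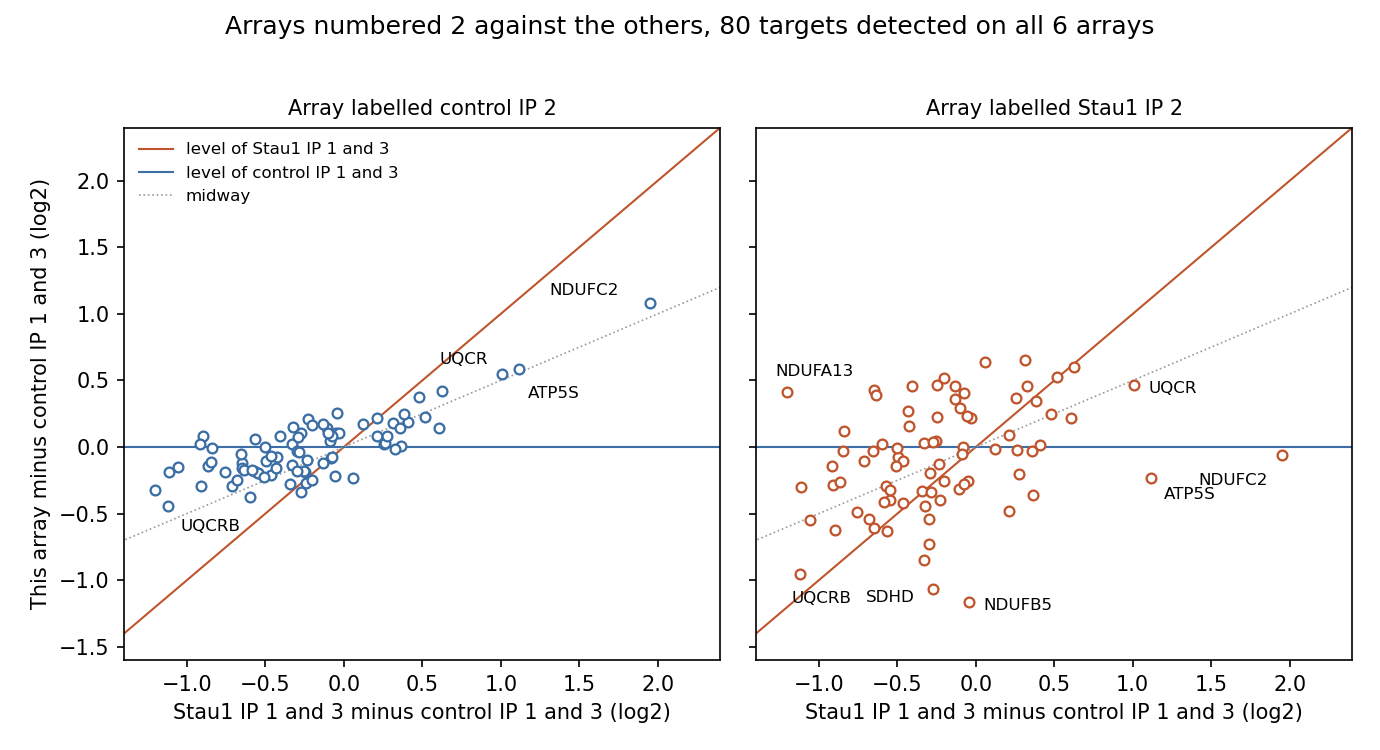
Each point is 1 of the 80 members detected on all 6 arrays. The horizontal axis gives Stau1 IP 1 and 3 minus control IP 1 and 3, and the vertical axis the array labelled control IP 2 (left) or Stau1 IP 2 (right) minus control IP 1 and 3, all in normalized log2 signal. Points on the blue line have the level of control IP 1 and 3 and points on the red line that of Stau1 IP 1 and 3. On the left most members with a negative difference lie above the dotted midway line, nearer to the controls, and NDUFC2, UQCR and ATP5S lie close to it, while on the right the points scatter, with NDUFA13 above the controls and SDHD and NDUFB5 more than 1 unit below them.

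Among the members with a stated protein mass, mostly complex I subunits, those with small proteins lay lower than those with large ones in both fits. This split was chosen after the values had been seen. The array annotation gives a protein mass in its definition for 32 of the 80 detected members. Apart from SDHC, UQCRQ, UQCR and NDUFA4 these are complex I subunits, and complex V is not represented. The core subunits of complex I are all at or above 20 kDa, so this split overlaps that of core and accessory subunits. Of the 22 below 20 kDa, 17 lay below 0 by the labels with a median log2 fold change of -0.337. Of the 10 at or above it, 5 did, with a median of 0.03. In the second fit, without the arrays numbered 2, 18 and 7 lay below 0, with medians of -0.545 and -0.163. Across these 32 genes Spearman's rho between mass and fold change was 0.251, and 0.18 without the arrays numbered 2. Small proteins come from short transcripts that are often abundant, and brighter members also had lower fold changes (Spearman's rho -0.296 over 80 genes between mean normalized log2 signal and fold change by the labels). The genes share the same 6 arrays, so these values are descriptions.

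Other genes of the pathway were read from lists of electron carriers, TCA cycle enzymes, assembly and associated genes outside the symbol rule, and nuclear regulators. CYC1 in the first list and UCRC and USMG5 in the third encode subunits that the symbol rule missed, and they are not counted in the complexes above. By the labels, 0 of them had an adjusted p under 0.05 in limma. At an unadjusted p under 0.05 the lists gave 0 lower and 1 higher of 5, 2 and 2 of 13, 2 and 5 of 20, and 3 and 1 of 11. Of the targets detected on all 6 arrays, 12.3% were lower and 9.99% higher, and of all targets 5.04% and 3.88%. Without the arrays numbered 2 the counts at an adjusted p under 0.05 were 0 and 1, 1 and 1, 2 and 0, and 3 and 1. In that fit 7.92% of the detected targets fell and 9.68% rose, against 2.36% and 3.3% of all targets. The lists are small, and their counts were not tested against these shares. The assembly group genes that fell were ATPIF1, the inhibitor of ATP synthase, and ACAD9, a complex I assembly factor. The carrier that rose was CYCS, cytochrome c, which takes electrons from complex III to complex IV. CYCS had signals of 187, 1773 and 225 on the control IPs and 2914, 137 and 2658 on the Stau1 IPs. Control IP 2 was thus far above the other controls and below Stau1 IP 1 and 3, and Stau1 IP 2 was below every control. The log2 fold change by the labels was 1.15 ± 1.32 (SE, limma adjusted p = 0.894) and 3.29 ± 0.13 (adjusted p = 0.00847) without the arrays numbered 2. CYC1, the cytochrome of complex III, did not change places in this way. It had 8524, 9255 and 6551 against 9451, 10300 and 9380, and a log2 fold change of 0.30 ± 0.11 (SE, limma adjusted p = 0.517).

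In the TCA cycle DLST, a subunit of 2-oxoglutarate dehydrogenase, had signals of 605, 1559 and 738 on the control IPs and 3211, 1454 and 4204 on the Stau1 IPs, and it was the only one of these 13 enzymes to rise without the arrays numbered 2, by 2.20 ± 0.11 log2 units (SE, limma adjusted p = 0.0106). SUCLG2, a subunit of succinyl-CoA ligase, was lower on all 3 Stau1 IP arrays, at 718, 710 and 790 against 1275, 1307 and 1239. Among the regulators, TFAM, which packages and transcribes mitochondrial DNA, had 2527, 2578 and 2372 on the control IPs and 1360, 1491 and 1509 on the Stau1 IPs. Its groups were apart with a log2 fold change of -0.78 ± 0.09 (SE, limma adjusted p = 0.13) by the labels and -0.89 ± 0.06 (adjusted p = 0.0129) without the arrays numbered 2. TFB1M, a factor for the mitochondrial ribosomal RNA, and the transcription factor YY1 fell in the same fit, and ESRRA, a nuclear receptor that drives respiratory chain genes, rose by 1.09 ± 0.05 (SE, limma adjusted p = 0.00953).

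Other protein families were set beside the respiratory chain. Of 77 mitochondrial ribosomal protein targets, 73 were detected on all 6 arrays. By the labels 16 (20.8%) were lower and 3 (3.9%) higher at an unadjusted limma p under 0.05. This compares with 5.04% and 3.88% of all targets and 12.3% and 9.99% of the targets detected on all 6 arrays. At an adjusted p under 0.05 without the arrays numbered 2, 12 (15.6%) fell and 5 (6.49%) rose. Here the shares were 2.36% and 3.3% of all targets and 7.92% and 9.68% of those detected, so the share that rose was below that of the detected targets. The median log2 fold change of this list was -0.193 and -0.374 in these fits, where that of the respiratory chain members was -0.144 and -0.202. Over the targets detected on all 6 arrays it was -0.193 and -0.347 for this list. For the 80 detected respiratory chain members it was -0.224 and -0.274, so the order by the labels depended on the undetected targets. Of 107 cytosolic ribosomal protein targets, 23 (21.5%) were lower and 4 (3.74%) higher by the labels, and 12 (11.2%) fell and 6 (5.61%) rose in the second fit, with medians of -0.0999 and -0.106. Of 61 targets for mitochondrial carriers and import, 5 (8.2%) were lower and 8 (13.1%) higher, and 2 (3.28%) fell and 10 (16.4%) rose, with medians of 0.034 and 0.0519. The lean towards lower signal was thus also present in both ribosomal protein lists. The differences between these lists and the respiratory chain were not tested.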

How the data were processed

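RNA from 3 control IPs and 3 Stau1 IPs was read on Illumina HumanWG-6 arrays. The authors deposited BeadStudio signal intensity per target with no background subtraction or normalization and the probes of a target combined, beside the bead standard error (an intensity), the number of beads (counts of beads) and a detection p-value. Groups came from the sample labels. Background correction, transformation and normalization followed the methods and were rewritten in R 4.3.3 (limma 3.58.1, mgcv 1.9.3). The negative-control median, read from the 200 targets nearest to a detection p of 0.5, was subtracted. A variance stabilizing transformation was fitted to the bead SD over 500 bins without the lowest 33.3% of signals, and arrays were fitted to control IP 2 by monotone splines with 10 knots. On each of the 6 arrays the constant term ended at its limit of 1. Values are thus close to a log2 of the shifted signal, and changes of dim targets are understated. The rebuilt steps were not compared with the software named in the methods, and were tested on simulated data.

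limma's lmFit and eBayes were run on all 37879 targets, by the labels and without both arrays numbered 2, with the normalization of all 6 arrays kept. Exact permutation tests were two-sided over the 20 ways to place the labels. Members, lists and named genes were chosen with earlier results of these data known. Named were SDHA to SDHD, the 2 brightest targets of complexes I, III, IV and V, the 8 members detected on at least 3 arrays with the largest difference in each fit, the tissue isoforms, and every member past a threshold; other genes were named after their values had been seen. Current symbols were found for 91 of 93 members in RefSeq. Plots were drawn with Python and matplotlib. Arrays have no read depth, and their number limits the precision.

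Alternatives were neqc, quantile normalization, median centring, no background correction, the first form of the transformation (its constant is a mean of squared bead SDs over undetected targets), a filter on detection, eBayes with trend, the methods' t-test, the replicate number as a block and leaving out each array. A form of neqc with a robust background was added after seeing the data.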

Additional observations from a re-analysis of the deposited data

How the results depend on the processing

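The lean of the respiratory chain members towards lower signal kept its sign under every alternative run, with a median log2 fold change between -0.253 under median centring and -0.0536 without Stau1 IP 3, against -0.144 as reported. Leaving out background correction and adding the replicate block returned the same -0.144, so these runs add no separate evidence on the median. The number of calls depended on the arrays and the scaling. By the labels, leaving out 1 array in turn gave between 14 and 37 members lower and between 4 and 13 higher at an unadjusted limma p under 0.05, and between 0 and 1 higher past the methods threshold. The count of 14 lower came without control IP 1, 15 lower came without Stau1 IP 3, and 37 lower and 13 higher came without Stau1 IP 2. With both arrays numbered 2 left out, 37 were lower and 10 higher at an unadjusted p, 14 lower and 5 higher at an adjusted p, and 1 higher past the methods threshold. The methods' t-test gave 14 lower, all among the 23 of limma, and 0 after Benjamini-Hochberg adjustment. Median centring and eBayes with trend gave 3 higher each, of which 3 and 2 were among the 6 as reported.

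In the fit without the arrays numbered 2, the 14 lower and 5 higher members at an adjusted p became 5 and 1 under neqc, 6 and 2 under the first form of the transformation and 9 and 3 under neqc with a robust background, and 25 were lower with the filter on detection. Past the methods threshold, neqc gave 4 lower and 0 higher, the first form 0 higher and neqc with a robust background 2 higher, against 0 lower and 1 higher. Of the 19 members called, 6, 8, 12 and 18 were called again under neqc, the first form, neqc with a robust background and the filter. The background SD that neqc inferred from the detection p-values was 460 to 608, where the median absolute deviation of undetected targets was 9.97 to 10.9, so that it pulled dim targets such as NDUFC2 together (0.281 by the labels, against 0.919 as reported and 1.43 with a robust background).

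Same-numbered arrays deviated from their group means in opposite directions (Pearson's r -0.451, -0.772 and -0.385 over detected targets). Each group mean includes its array numbered 2, and Stau1 IP 2 stood apart from its group. These values therefore do not decide whether the numbers pair the arrays. With the replicate number as a block, 0 members passed at an adjusted p and 20 were lower and 4 higher at an unadjusted p. Arrays give no read depth. The 9 members detected on no array can show no difference.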
